A study of Mus musculus with 6 samples.

Results

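The 55 genes described here carry out mitosis and chromosome segregation. They were taken from a list of gene symbols arranged by function, and all 55 matched 1 row each of the deposited table of 54532 genes. All 55 passed the filter on low counts, which kept 16471 genes. The RNA came from newborn mouse epidermis and was sequenced in 3 libraries labelled Paxbp1 knockout and 3 labelled Wildtype, to compare expression after depletion of Paxbp1. The product of Paxbp1 is a partner of the transcription factors Pax3 and Pax7. The labels give no strain, no Cre driver, no deleted exons and no age beyond newborn, and do not say whether a library came from 1 animal or from several.

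Mitosis begins when cyclin-dependent kinase 1, bound to cyclin B, is released from inhibitory phosphorylation. Condensin and topoisomerase then compact the chromosomes, kinesins build the spindle, and kinetochores on the centromeres attach to its microtubules. The spindle checkpoint holds back the anaphase-promoting complex until all kinetochores are attached. That complex then marks securin and cyclin B for destruction, separase cuts cohesin, and the cell divides. In epidermis, division takes place mainly in the basal layer, and cells that move upwards leave the cycle. Many of these genes are transcribed late in the cycle through a short promoter element named CHR, for cell cycle genes homology region, and through CCAAT boxes.

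Library totals ran from 16643839 to 17816327 counts in the libraries labelled knockout and from 16315317 to 17802056 in the wild type libraries. Paxbp1 itself had 134, 73.6 and 69.7 CPM (counts relative to library size, scaled with TMM factors) in libraries 1 to 3 labelled knockout, against 110, 70.9 and 77.8 CPM in the wild type libraries. The groups overlapped, with a log2 fold change of 0.10 ± 0.29 (SE; edgeR adjusted p = 0.783). The labels do not say which exons were deleted, and a deletion of some of them need not lower the gene's total, so this count does not check the genotype labels. Directions below are those of the libraries labelled knockout against the wild type libraries.

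The cell type markers of the groups differed. All 10 basal keratinocyte markers and all 10 suprabasal markers were called lower in the libraries labelled knockout (edgeR quasi-likelihood test, adjusted p under 0.05). Over all 16471 genes tested, 25.1% were called lower and 28.7% higher, which is the share to set beside each marker list. Among the basal markers Itgb4, whose groups overlapped (edgeR adjusted p = 0.0446), lost its call in 8 of 18 alternative analyses and Krt14 in 4. The summed basal level was 2088 to 5220 CPM in these libraries, against 20620 to 22670 CPM in the wild type. Of 10 fibroblast markers 9 were tested, 8 being higher and 1 lower, with sums of 3635 to 9357 CPM in the libraries labelled knockout and 452 to 458 CPM in the wild type. All 10 macrophage markers were higher, with sums of 9990 to 18770 CPM against 169 to 186 CPM in the wild type. Of 10 neutrophil markers 6 were tested and 6 were higher, with sums of 3260 to 8096 CPM against 1.91 to 2.73 CPM in the wild type. Of the markers of these other cells, Mfap5 of the fibroblast list and Ly6g of the neutrophil list had no count in any wild type library. Of 8 endothelial markers 5 were tested and 5 were higher, with sums of 194 to 366 CPM against 1.17 to 4.04 CPM in the wild type, where Emcn had no count. At such low wild type levels, neutrophil and endothelial markers passed the filter on low counts largely through the libraries labelled knockout. The direction of those tested was thus largely set by the filter, and their number is not support for a difference. Of 8 erythroid markers 5 were higher and 1, Klf1, lower (not called in 9 of the 17 alternative analyses that tested it, the replicate block among them), with sums of 887 to 1798 CPM against 6.42 to 9.66 CPM in the wild type. In the wild type, 1 of these 8 markers had no count in any library. Of 8 T cell markers 7 were tested, 2 being higher (Cd2 and Thy1) and 3 lower (Cd3e, Cd3g and Lck). Their sums were 105 to 144 CPM against 28.8 to 47.6 CPM in the wild type, while their median log2 fold change was -1.53. The sum and the median thus pointed in opposite directions. The lower T cell markers numbered 1 without wild type library 1 and on log2(FPKM + 1), and 2 without library 3 labelled knockout, without both libraries numbered 1 and on log2(FPKM + 0.1). The part of these differences in the results below was not tested. In bulk tissue, fewer cells of a type and less RNA per cell cannot be told apart.

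Mitosis genes were lower almost throughout in the libraries labelled knockout. Of the 55 genes 53 fell and 1, the securin gene Pttg1, rose (edgeR quasi-likelihood test, with p adjusted by Benjamini-Hochberg over the 16471 genes and called under 0.05). Among all genes tested 25.1% were called lower and 28.7% higher. The checkpoint gene Bub3 was not called. The median log2 fold change of the 55 genes was -1.46, against -0.029 over all genes tested. Of the genes that fell, 39 did so by at least 2-fold, where 19.5% of all genes tested did. Summed, the 55 genes reached 1095, 1172 and 1135 CPM in the libraries labelled knockout, against 2821, 2682 and 3027 CPM in the wild type libraries. The 3 sums labelled knockout lay close together and far under the wild type sums.

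**Figure D1:**
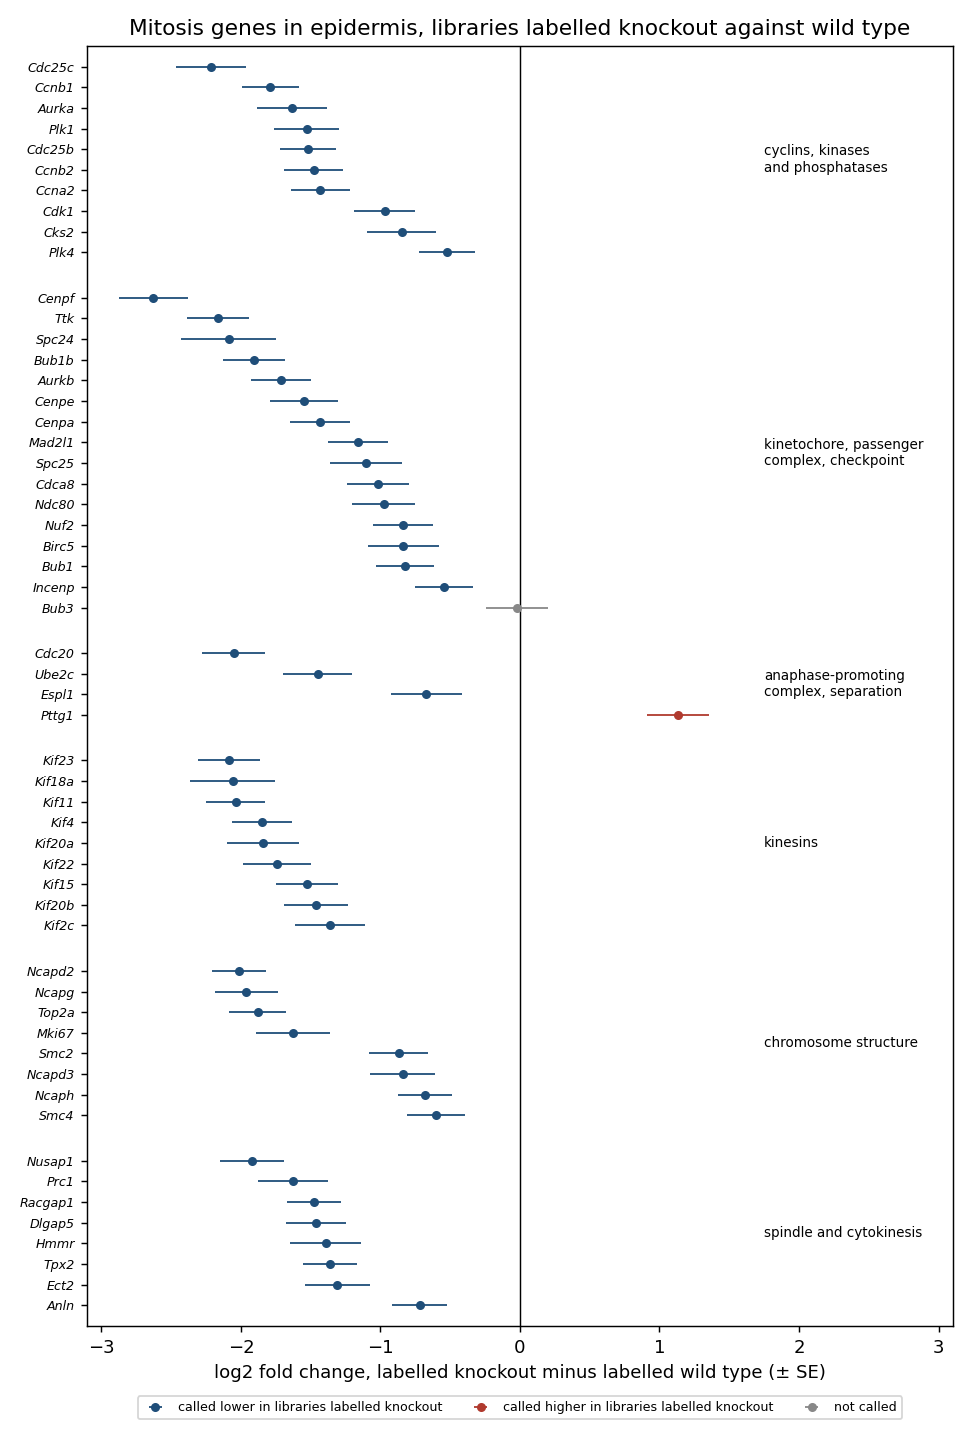
Log2 fold change (libraries labelled knockout minus wild type, x axis) of each of the 55 mitosis genes, ordered by role and by size. Points are estimates from edgeR and bars are their standard errors (3 libraries per group), with colour showing the call. All genes lie left of 0 except Pttg1 at 1.13, and Bub3 at -0.02 has a bar that crosses 0.

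Single genes separated the groups as well. The ranges of the groups did not overlap for 54 of the 55 genes, which held for 62.3% of all genes tested. For 53 of them the libraries labelled knockout were the lower ones, against 30.4% of all genes tested. Bub3 was the only gene of the list whose groups overlapped. The fall was of like size in each library labelled knockout. Relative to the wild type mean of each gene, the median log2 difference was -1.45 in library 1, -1.45 in library 2 and -1.39 in library 3. As sums, the mitosis genes stood at 1095, 1172 and 1135 CPM in the same libraries. Sums of basal keratinocyte markers were less even, at 5220, 4929 and 2088 CPM. Library 3 labelled knockout, with the lowest keratinocyte sum, also had the highest fibroblast, macrophage and endothelial sums, and its mitosis sum lay between those of libraries 1 and 2. Its erythroid sum was the lowest of the libraries labelled knockout, at 887 CPM. Neutrophil sums were 3260, 8096 and 5916 CPM in libraries 1 to 3 labelled knockout. Any relation of the mitosis sums to these marker sums was not tested.

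**Figure D2:**
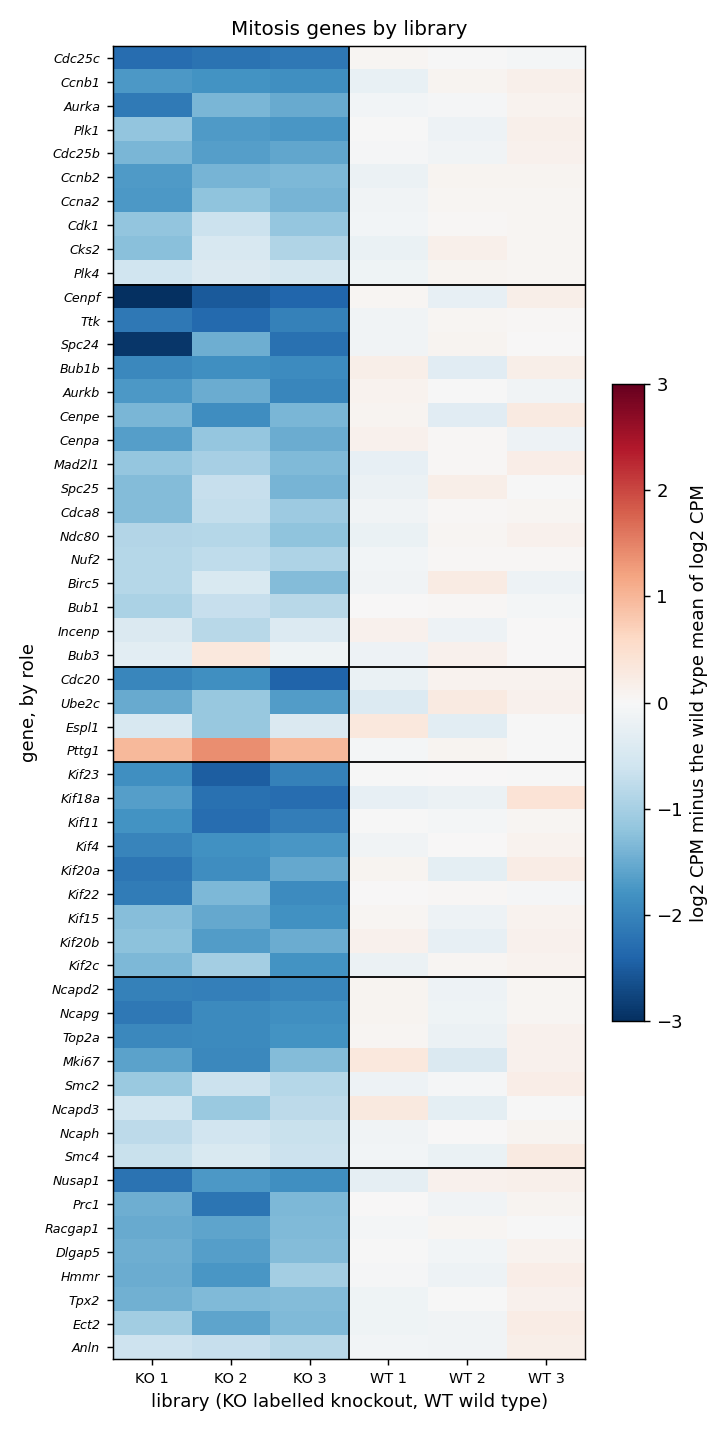
Heat map of the 55 mitosis genes (rows, by role) in the 6 libraries (columns), with colour giving log2 CPM minus the wild type mean of that gene's log2 CPM. The libraries labelled knockout are blue in all rows but those of Pttg1 and Bub3, with pale blue for Plk4, Incenp, Espl1 and Smc4, and no wild type library stands apart.

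Cyclins, kinases and their activators fell for all 10 genes, with a median log2 fold change of -1.50. The steepest fall was that of Cdc25c, which encodes a phosphatase that activates cyclin-dependent kinase 1. It had 3.06, 3.20 and 3.41 CPM in the libraries labelled knockout, against 15.7, 14.9 and 14.4 CPM in the wild type libraries (log2 fold change -2.21 ± 0.25, edgeR adjusted p = 2.87e-05). Each group was tight and the gap between them wide. The cyclin B gene Ccnb1 had 19.3, 18.4 and 17.9 CPM in the libraries labelled knockout, against 54.3, 67.6 and 70.2 CPM in the wild type libraries. Its kinase partner Cdk1 fell less, with 22.5, 32.7 and 22.5 CPM in the libraries labelled knockout, against 47.7, 52.0 and 52.4 CPM in the wild type libraries. The log2 fold changes were -1.79 ± 0.20 for Ccnb1 and -0.97 ± 0.22 for Cdk1. Between these lay the cyclins Ccnb2 (-1.48) and Ccna2 (-1.43), the spindle kinase Aurka (-1.63), the mitotic kinase Plk1 (-1.53) and the phosphatase Cdc25b (-1.52). Cks2, a small subunit bound to the kinase, fell by 0.85. The smallest change was in Plk4, the kinase that starts centriole duplication, with 16.6, 18.9 and 17.5 CPM in the libraries labelled knockout, against 23.2, 26.6 and 26.3 CPM in the wild type libraries. Its groups did not overlap, but its call was marginal (log2 fold change -0.52 ± 0.20, edgeR adjusted p = 0.0492) and was lost in 12 of 18 alternative analyses.

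Genes of the centromere, the kinetochore, the passenger complex and the checkpoint fell for 15 of 16 members, with a median of -1.13. Cenpf (chromosome 1, 189640606 to 189688086, minus strand, mm10), a large kinetochore and microtubule-binding protein gene, had the steepest fall of the 55 genes. It had 9.57, 13.9 and 15.3 CPM in the libraries labelled knockout, against 82.6, 67.1 and 89.5 CPM in the wild type libraries (log2 fold change -2.63 ± 0.25, edgeR adjusted p = 7.09e-06). The lowest wild type library was over 4 times the highest library labelled knockout. The checkpoint kinase gene Ttk (-2.16) and the centromeric kinesin gene Cenpe (-1.55) fell too, as did the centromeric histone gene Cenpa (-1.43) and the checkpoint kinase gene Bub1 (-0.83).

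The Ndc80 complex, which binds spindle microtubules, has 4 subunits that fell by unequal amounts. Spc24 had 3.06, 8.43 and 4.96 CPM in the libraries labelled knockout, against 21.6, 24.7 and 23.5 CPM in the wild type libraries (log2 fold change -2.09 ± 0.34). Nuf2 had 10.4, 11.1 and 9.91 CPM in the libraries labelled knockout, against 17.7, 19.3 and 19.2 CPM in the wild type libraries (-0.84 ± 0.21). Ndc80 (-0.98) and Spc25 (-1.10) lay nearer to Nuf2. Spc24 varied most between the libraries labelled knockout, but all 3 stayed under the wild type range.

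The chromosomal passenger complex corrects faulty attachments and carries the Aurora B kinase. Its kinase gene Aurkb had 12.5, 14.8 and 10.7 CPM in the libraries labelled knockout, against 44.7, 41.2 and 38.5 CPM in the wild type libraries (log2 fold change -1.71 ± 0.22). Its scaffold gene Incenp had 48.4, 36.4 and 48.8 CPM in the libraries labelled knockout, against 71.4, 58.4 and 65.3 CPM in the wild type libraries (-0.55 ± 0.21). The groups were far apart for Aurkb and close for Incenp. Cdca8 (-1.02) and the survivin gene Birc5 (-0.84) lay between. The call of Incenp (edgeR adjusted p = 0.0445) was lost in 12 of 18 alternative analyses.

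The mitotic checkpoint complex, which holds the anaphase-promoting complex inactive, contains the products of Bub3, Bub1b, Mad2l1 and Cdc20. Bub3 (chromosome 7, 131560222 to 131571895, plus strand) had 65.9, 101 and 75.3 CPM in the libraries labelled knockout, against 74.2, 89.0 and 82.9 CPM in the wild type libraries. The wild type values lay inside the range of the others, and the log2 fold change was -0.02 ± 0.22 (edgeR adjusted p = 0.943). Its partner Bub1b had 13.4, 14.2 and 13.8 CPM in the libraries labelled knockout, against 57.5, 40.2 and 57.4 CPM in the wild type libraries (-1.91 ± 0.22). Mad2l1 fell by 1.16 on the log2 scale. The deposited span of Bub3 overlaps that of Fgfr2 on the opposite strand over 11674 bases, and the strand setting of the counting is not given in the sources used here. Fgfr2 had 913 counts over the libraries labelled knockout and 17490 over the wild type libraries, against 3930 and 4378 counts for Bub3 itself.

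The anaphase-promoting complex and the separation of sister chromatids held the gene that rose. Cdc20, the activator that opens anaphase, had 21.3, 23.1 and 15.7 CPM in the libraries labelled knockout, against 71.8, 89.0 and 88.7 CPM in the wild type libraries (log2 fold change -2.05 ± 0.23, edgeR adjusted p = 2.30e-05). Ube2c, the ubiquitin-conjugating enzyme of the complex, fell by 1.45. Pttg1 (chromosome 11, 43420250 to 43426251, minus strand) encodes securin, which binds and restrains separase. It had 23.2, 31.2 and 23.2 CPM in the libraries labelled knockout, against 11.3, 12.4 and 11.7 CPM in the wild type libraries (log2 fold change 1.13 ± 0.22, edgeR adjusted p = 0.00134). Every library labelled knockout was above every wild type library, and the call held in all 18 alternative analyses. The separase gene Espl1 had 28.1, 18.03 and 29.3 CPM in the libraries labelled knockout, against 49.1, 31.9 and 39.4 CPM in the wild type libraries (-0.67 ± 0.25, edgeR adjusted p = 0.0444), and lost its call in 9 of 18 alternative analyses. No other gene of the deposited table overlaps the span of Pttg1.

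Kinesins fell for all 9 genes, each by at least 2-fold, with a median of -1.84 and a range from -2.09 to -1.36. Kif23, a motor of the central spindle, had 15.1, 9.67 and 13.2 CPM in the libraries labelled knockout, against 53.4, 54.0 and 53.6 CPM in the wild type libraries (log2 fold change -2.09 ± 0.23). Kif11, the motor that pushes the spindle poles apart, had 25.0, 17.9 and 20.6 CPM in the libraries labelled knockout, against 86.0, 84.1 and 90.7 CPM in the wild type libraries (-2.04 ± 0.21). The wild type libraries hardly differed from each other in either gene. Kif18a, which shortens kinetochore microtubules, fell by 2.06, and the chromosome-bound motors Kif4 and Kif22 by 1.85 and 1.74. Kif20a and Kif20b, motors of cytokinesis, fell by 1.84 and 1.46, and Kif15 by 1.53. Kif2c, a microtubule depolymerase, was the least changed kinesin, with 11.8, 14.9 and 8.73 CPM in the libraries labelled knockout, against 26.8, 31.7 and 32.7 CPM in the wild type libraries (-1.36 ± 0.25). Across the 55 genes, 11 overlap a gene on the opposite strand that held over 10% of their own counts. Over all 6 libraries Elovl1 beside Cdc20 (53 bases of overlap), Cdc23 beside Kif20a (2315 bases), Pdzd11 beside Kif4 (832 bases) and Lcorl beside Ncapg (3366 bases) had more counts than these members, as Fgfr2 had beside Bub3. The part of such reads in the members' counts was not tested.

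Genes of chromosome structure fell for all 8 members, with a median of -1.25. The condensin subunits split by size of fall. Ncapd2 had 32.1, 31.4 and 33.8 CPM in the libraries labelled knockout, against 138, 118 and 137 CPM in the wild type libraries (log2 fold change -2.01 ± 0.20), and Ncapg fell by 1.96. Ncaph, the third non-SMC subunit of condensin I, had 22.6, 25.9 and 24.3 CPM in the libraries labelled knockout, against 36.2, 39.4 and 41.0 CPM in the wild type libraries (-0.68 ± 0.19). The core ATPase genes Smc2 (-0.87) and Smc4 (-0.60) and the condensin II gene Ncapd3 (-0.84) fell by amounts nearer to that of Ncaph. Smc4, the least changed of the 8, had 69.8, 80.3 and 71.6 CPM in the libraries labelled knockout, against 106, 96.7 and 134 CPM in the wild type libraries, and lost its call in 6 of 18 alternative analyses. The topoisomerase gene Top2a had 56.2, 58.0 and 62.7 CPM in the libraries labelled knockout, against 223, 190 and 238 CPM in the wild type libraries (-1.88 ± 0.21). Mki67, the proliferation marker Ki-67 that coats mitotic chromosomes, had 74.1, 58.6 and 90.1 CPM in the libraries labelled knockout, against 277, 165 and 245 CPM in the wild type libraries (-1.62 ± 0.26). For these genes no library labelled knockout reached the lowest wild type library.

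Spindle assembly and cytokinesis genes fell for all 8 members, with a median of -1.43. Nusap1, which bundles spindle microtubules, had 10.4, 14.5 and 13.5 CPM in the libraries labelled knockout, against 39.8, 52.5 and 53.2 CPM in the wild type libraries (log2 fold change -1.92 ± 0.23). Tpx2, which activates Aurora A, fell by 1.36, and the spindle proteins Dlgap5 and Hmmr by 1.46 and 1.39. The midzone bundler Prc1 fell by 1.63, Racgap1, the partner of Kif23 in centralspindlin, by 1.47, and the cytokinesis regulator Ect2 by 1.31. Anln, which encodes the contractile ring scaffold anillin, changed least, with 32.7, 31.2 and 28.5 CPM in the libraries labelled knockout, against 47.6, 47.0 and 57.5 CPM in the wild type libraries (-0.72 ± 0.20).

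**Figure D3:**
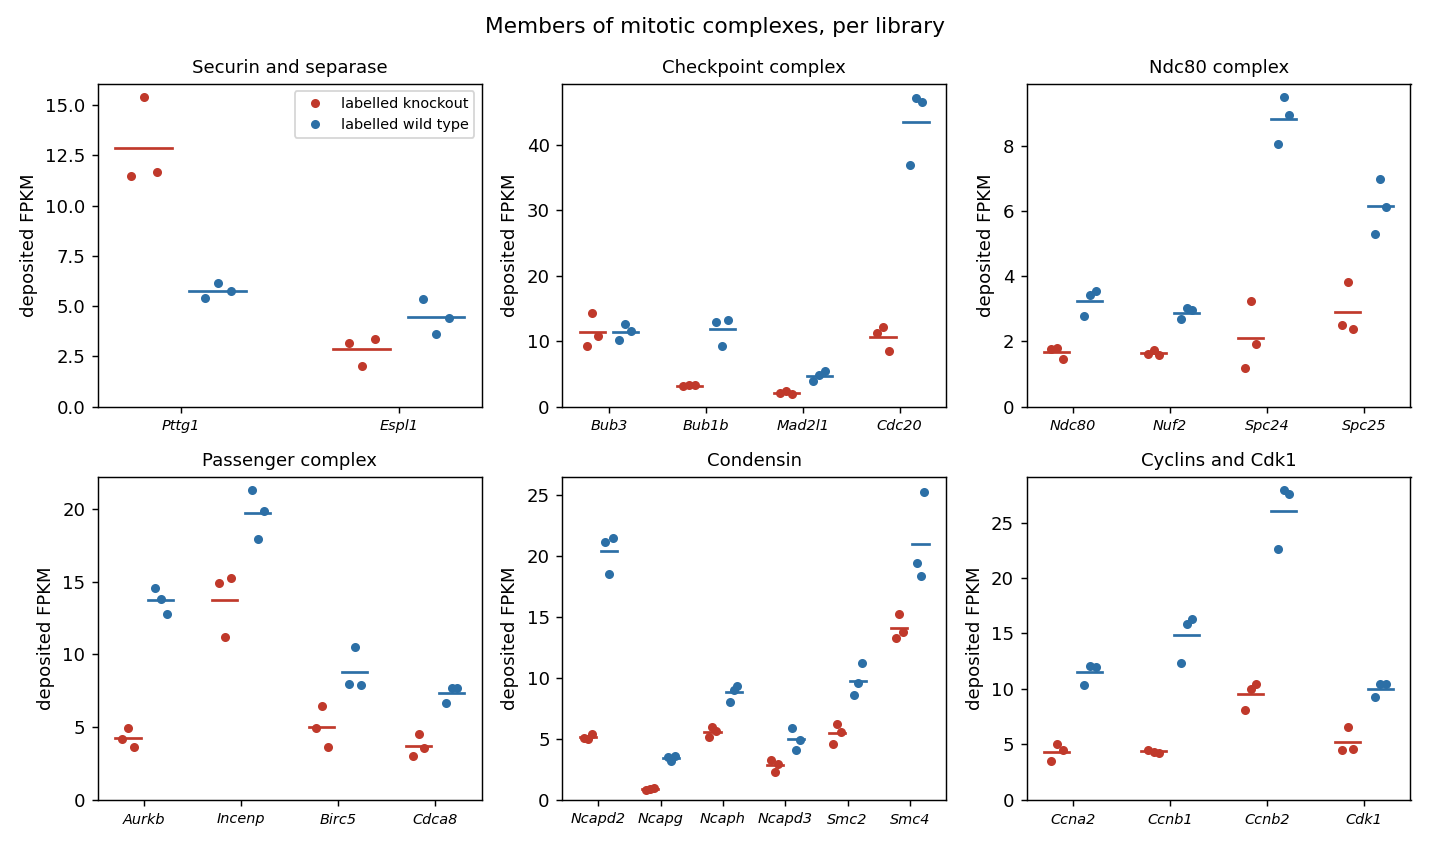
Deposited FPKM (fragments relative to gene length and library size, y axis from 0) of members of 6 mitotic groups, with points for single libraries and lines for the mean of 3 libraries, the libraries labelled knockout left of the wild type libraries. Cdc20, Bub1b, Ncapd2 and Aurkb show wide gaps between groups, Bub3 shows none, and Pttg1 is higher in the libraries labelled knockout.

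Because partners fell by unequal amounts, their ratio per gene length was set out for 9 pairs chosen after their values were seen. With 3 libraries per group the smallest exact two-sided permutation p is 0.1, and all 9 pairs reached it, so none could pass a threshold of 0.05 (0.1 also when adjusted over the 9 pairs). The Pttg1 to Espl1 ratio of FPKM was 3.61, 7.56 and 3.47 in the libraries labelled knockout, against 1.01, 1.70 and 1.30 in the wild type libraries. The Cdc20 to Bub3 ratio was 1.22, 0.856 and 0.783 in the libraries labelled knockout, against 3.63, 3.75 and 4.01 in the wild type libraries. The Ncapd2 to Ncaph ratio was 0.975, 0.835 and 0.955 in the libraries labelled knockout, against 2.62, 2.05 and 2.30 in the wild type libraries. For each of these pairs the groups did not overlap. The mean Spc24 to Nuf2 ratio was 1.28 ± 0.575 in the libraries labelled knockout and 3.06 ± 0.0786 in the wild type libraries (SD, n = 3 each). The mean Aurkb to Incenp ratio was 0.322 ± 0.109 in the libraries labelled knockout and 0.699 ± 0.0645 in the wild type libraries (SD, n = 3 each). The mean Ccnb1 to Cdk1 ratio was 0.864 ± 0.183 in the libraries labelled knockout and 1.47 ± 0.125 in the wild type libraries (SD, n = 3 each).

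The order of levels per gene length changed as well. Median FPKM over the 55 genes was 3.21 in the libraries labelled knockout and 8.01 in the wild type libraries. Cks2 was the most abundant member in both groups, with 25.7 ± 6.94 FPKM in the libraries labelled knockout and 45.3 ± 6.33 FPKM in the wild type libraries (SD, n = 3 each). In the wild type it was followed by Cdc20 (43.5 ± 5.77 FPKM) and Ccnb2 (26.0 ± 2.96 FPKM), and Cks2 and Cdc20 did not differ there beyond their spread. In the libraries labelled knockout Cks2 was followed by Smc4 (14.1 ± 1.02 FPKM), Incenp (13.8 ± 2.25 FPKM) and Pttg1 (12.9 ± 2.21 FPKM), which did not differ from each other beyond their spread. Pttg1 stood at rank 4 of 55 in the libraries labelled knockout and at rank 37 in the wild type libraries. Kif18a was the least abundant member in both groups.

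Promoters of these genes share short elements that the choice of genes did not use. The RefSeq promoter table (GRCm38.p6, 250 bases before to 50 bases after the annotated start) held 46 of the 55 genes in 50 windows. Aurkb, Ccna2, Cdc25c, Dlgap5, Incenp, Kif20a, Smc4, Spc24 and Tpx2 were not matched. The CHR letters were searched as TTTGAA or TTCGAA, and the CCAAT box as CCAAT, each on both strands. A gene counted as matched if any of its windows held a match. Annotated starts could differ from the deposited gene spans. The windows of Pttg1, Kif2c, Cdca8 and Kif4 lie wholly inside those spans. In Ncapd3 the only CHR match lay in the window of a further start inside the span. A CHR match was found in 35 of the 46 genes (76.1%), against 21.7% of all 27018 genes in the table and 16.7% of its protein-coding genes tested here. A CCAAT match was found in 32 of the 46 genes (69.6%), against 41.1% of all genes in the table and 42.6% of the protein-coding genes tested. Of the 50 windows 32 held both (64.0%), against 7.52% of all windows. Matches overlapped at 2 places in these windows, a CHR match with a CCAAT match in Cdca8 and a CCAAT match with another in Ube2c. A match is a description of the letters and was not tested for binding.

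The promoters below show the elements across the range of fold changes: a pair of genes that fell steeply and hold both elements, the cyclin B gene, the gene that was not called and the gene that rose. Capitals mark matches of the searched letters on either strand.
Cenpf promoter, chr1:189688037-189688336, minus strand: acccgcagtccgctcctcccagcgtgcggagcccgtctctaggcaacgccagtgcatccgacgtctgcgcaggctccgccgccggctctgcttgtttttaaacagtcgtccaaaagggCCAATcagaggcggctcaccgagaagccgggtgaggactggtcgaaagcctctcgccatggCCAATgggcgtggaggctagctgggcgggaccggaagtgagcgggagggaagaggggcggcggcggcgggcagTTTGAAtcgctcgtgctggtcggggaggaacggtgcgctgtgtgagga
Cdc20 promoter, chr4:118437294-118437593, minus strand: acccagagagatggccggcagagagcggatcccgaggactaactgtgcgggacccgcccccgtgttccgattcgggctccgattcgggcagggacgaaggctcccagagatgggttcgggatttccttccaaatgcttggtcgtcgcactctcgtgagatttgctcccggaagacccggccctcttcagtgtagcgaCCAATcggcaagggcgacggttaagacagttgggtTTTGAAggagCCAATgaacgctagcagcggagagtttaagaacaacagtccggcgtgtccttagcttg
Ccnb1 promoter, chr13:100786437-100786736, minus strand: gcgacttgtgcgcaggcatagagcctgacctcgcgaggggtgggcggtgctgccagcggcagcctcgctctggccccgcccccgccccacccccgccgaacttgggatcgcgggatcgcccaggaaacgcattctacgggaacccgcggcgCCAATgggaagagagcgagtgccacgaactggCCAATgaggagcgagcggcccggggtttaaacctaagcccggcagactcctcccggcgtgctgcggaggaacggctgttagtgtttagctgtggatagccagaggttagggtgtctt
Bub3 promoter, chr7:131560120-131560419, plus strand: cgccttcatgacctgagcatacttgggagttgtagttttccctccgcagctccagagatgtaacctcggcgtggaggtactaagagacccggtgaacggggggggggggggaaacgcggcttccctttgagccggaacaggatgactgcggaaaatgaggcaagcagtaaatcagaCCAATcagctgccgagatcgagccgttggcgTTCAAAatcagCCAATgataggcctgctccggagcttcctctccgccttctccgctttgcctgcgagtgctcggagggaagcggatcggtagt
Pttg1 promoter, chr11:43425932-43426231, minus strand: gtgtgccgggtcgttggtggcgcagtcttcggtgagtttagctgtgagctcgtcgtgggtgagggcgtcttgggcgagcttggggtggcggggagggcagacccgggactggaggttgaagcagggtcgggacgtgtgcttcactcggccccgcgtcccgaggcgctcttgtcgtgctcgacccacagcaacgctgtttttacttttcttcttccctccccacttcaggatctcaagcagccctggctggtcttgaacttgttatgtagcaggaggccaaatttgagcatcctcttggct

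In the Cenpf window the CHR letters begin 2 bases after the annotated start, and in the Cdc20 window 18 bases before it. The Ccnb1 window holds a pair of CCAAT boxes and no CHR match. Bub3, which was not called, holds a CHR match and a pair of CCAAT boxes like the genes that fell, and the window shown is the upstream one of 2 annotated starts. The Pttg1 window holds neither, but it lies wholly inside the deposited span of the gene. Bases upstream of that span were thus not searched for Pttg1. Among the 46 genes, those with a CHR match had a median log2 fold change of -1.48 (35 genes) and those without one of -0.85 (11 genes), with ranges that overlapped (-2.63 to -0.02 and -2.06 to 1.13). Of the 8 genes with neither element, 7 fell, among them Kif18a and Nusap1 with falls of 2.06 and 1.92. Steep falls were found with and without these letters in the window.

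Other genes of mitosis were described by lists that hold none of the 55 genes. The share to set beside each list is that over all genes tested, 25.1% lower and 28.7% higher. Of 29 other spindle and cytokinesis genes 22 were lower and 1 higher, with a median of -1.33. Fam83d, a spindle protein gene, fell by 3.56 and the spindle pole gene Aspm by 1.98, and the augmin subunit gene Haus3 rose (0.68 ± 0.23, edgeR adjusted p = 0.0303). Of 34 other centromere and kinetochore genes 20 were lower and 1 higher, with a median of -1.07. Ska2, of the outer kinetochore, fell by 2.04, Cenph, of the inner kinetochore, averaged 4.34 ± 1.42 CPM in the libraries labelled knockout and 17.3 ± 2.42 CPM in the wild type libraries (SD, n = 3 each), and Zwint, which joins the kinetochore to checkpoint proteins, rose (0.56 ± 0.20, edgeR adjusted p = 0.0365). The calls of Haus3 and Zwint were each lost in 8 of 18 alternative analyses.

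Of 17 subunits and partners of the anaphase-promoting complex 5 were lower and 1 higher, with a median of -0.23. Its inhibitor Fbxo5 fell by 1.53, the subunit Cdc23 by 0.78 and the late activator Fzr1 by 0.63, and the subunit gene Anapc10 rose (0.68 ± 0.25, edgeR adjusted p = 0.0413). The lower members numbered 1 without wild type library 3, 2 without wild type library 2, 2 without both libraries numbered 1, and 3 without library 1 or 3 labelled knockout, and the call of Anapc10 was lost in 10 of 18 alternative analyses. Of 15 cohesin and further condensin II genes 5 were lower and 1 higher, with a median of -0.14. The acetyltransferase gene Esco2, which establishes cohesion, fell by 2.05 and the sororin gene Cdca5 by 1.51, and Esco1, a relative of Esco2, rose (0.94 ± 0.21, edgeR adjusted p = 0.00274). The lower members numbered 3 without wild type library 3, and the higher members 3 without library 1 labelled knockout and 3 with the replicate block. The shares of these lists lie near the 25.1% of all genes tested that were lower.

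Regulators of mitotic entry and of transcription late in the cycle numbered 24, of which 14 fell and 1 rose, with a median of -0.68. Among all genes tested 25.1% were lower and 28.7% higher. Foxm1, a transcription factor of mitotic genes, had 15.7, 6.60 and 15.0 CPM in the libraries labelled knockout, against 62.3, 44.0 and 53.2 CPM in the wild type libraries (log2 fold change -2.09 ± 0.32, edgeR adjusted p = 0.000248). Mybl2, which acts with it at CHR promoters, had 12.97, 6.93 and 6.81 CPM in the libraries labelled knockout, against 17.95, 13.1 and 17.1 CPM in the wild type libraries (-0.85 ± 0.30, edgeR adjusted p = 0.0344). The groups lay well apart for Foxm1 and close for Mybl2, whose call was lost in 6 of 18 alternative analyses. Lin9, a subunit of the complex that binds these promoters, had 20.7, 15.7 and 14.3 CPM in the libraries labelled knockout, against 17.95, 29.6 and 26.5 CPM in the wild type libraries, with overlap and no call (edgeR adjusted p = 0.0970). Of the kinases that restrain Cdk1, Pkmyt1 fell by 2.21 and Wee1 by 0.53, the call of Wee1 (edgeR adjusted p = 0.0465) being lost in 11 of 18 alternative analyses. The mitotic kinase gene Nek2 fell by 1.86, and Ensa, which encodes an inhibitor of a phosphatase that opposes Cdk1, rose (0.80 ± 0.23). The lower members of this list numbered 8 without wild type library 3 and 9 without library 3 labelled knockout.

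Beside them, 25 of 34 DNA replication genes were lower and none higher, against 25.1% lower and 28.7% higher among all genes tested. Their median log2 fold change was -1.07. Their summed level was 774, 981 and 757 CPM in the libraries labelled knockout, against 1569, 1569 and 1808 CPM in the wild type libraries. The replicative helicase gene Mcm5 fell by 1.89 and the primase gene Prim1 by 1.79. The mean summed level in the libraries labelled knockout was 0.399 of that in the wild type for the 55 mitosis genes, 0.508 for the replication genes, 0.187 for the basal and 0.0720 for the suprabasal keratinocyte markers. The differences between these ratios were not tested.

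**Figure D4:**
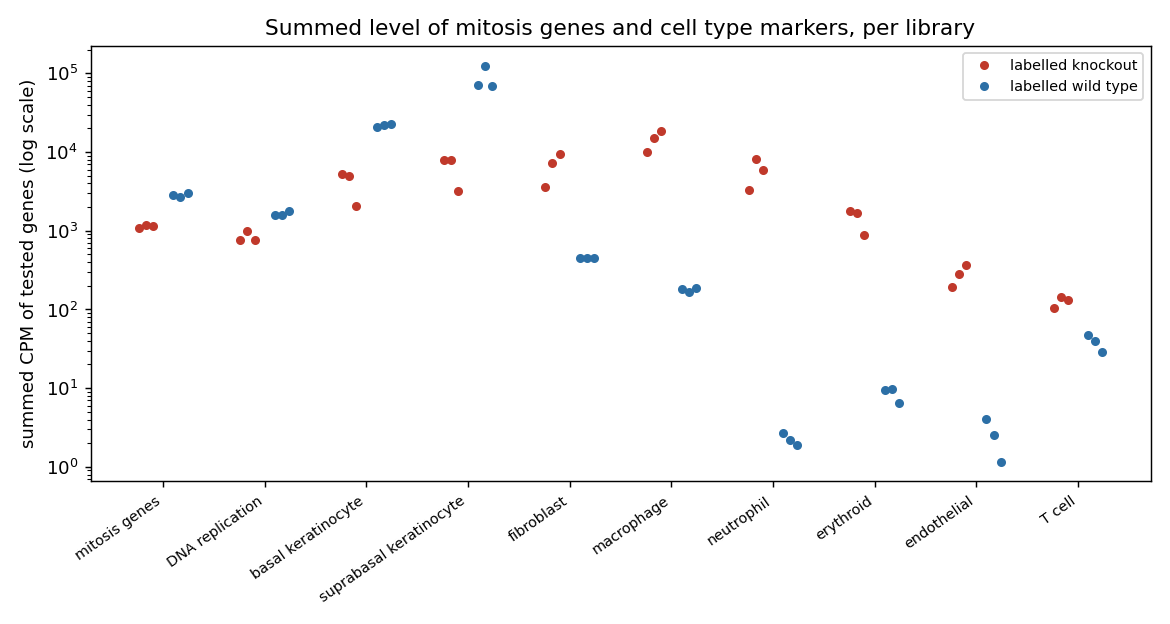
Summed CPM (y axis, log scale) of the tested genes of each list in each library, the libraries labelled knockout left of the wild type libraries. Mitosis genes lie at 1095 to 1172 CPM in the libraries labelled knockout and at 2682 to 3027 CPM in the wild type, while keratinocyte sums are lower and fibroblast, macrophage, neutrophil, erythroid and endothelial sums higher in the libraries labelled knockout.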

How the data were processed

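Gene expression was measured in 3 libraries labelled Paxbp1 knockout and 3 labelled Wildtype. Per the submitters' processing notes, HISAT2 2.0.5, featureCounts 1.5.0-p3 and the build mm10 were used, with settings, strand mode included, not given in the sources used here. Both value types were deposited by the authors, namely whole-number counts per gene, used as they stand, and FPKM values. Within a library the deposited FPKM were the counts over gene length times 1 constant, which was 0.854 to 1.12 times that expected from the sum of counts.

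Counts were analysed in R 4.3.3 with edgeR 4.0.16 (TMM factors, minimum count 10, minimum total 15, robust quasi-likelihood test, genotype as the only term, adjusted p under 0.05). The 16471 genes kept held at least 99.7% of the counts of each library. SE was computed as |log2 fold change| divided by the root of F. FPKM served for levels between genes and for limma-trend 3.58.1 on log2(FPKM + 1) and log2(FPKM + 0.1) of genes with a mean FPKM of at least 0.1. Further alternatives changed the scaling (library size, upper-quartile or RLE), the filter (none, or 1 CPM in 3 libraries), the tool (limma-voom or DESeq2 1.42.0), the estimation (not robust), the design (replicate number as a block) or the samples (each library left out, or both with number 1).

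The genes and lists were chosen with earlier results of these data known. The rule for named genes took all 55, with values per library for the largest and smallest change of each role, and from each list the 2 called genes with the smallest adjusted p in each direction. 6 regulators, Foxm1, Mybl2, Lin9, Fzr1, Wee1 and Pkmyt1, were added by name. Other values per library were chosen after they were seen. Whether equal replicate numbers pair libraries was described by correlation, without a test. Deviations from group means correlated at 0.232, 0.339 and 0.176 between same-numbered libraries, and at -0.323 to 0.0734 between the rest. Any pairing is thus read from the data alone, the meaning of a number being unlabelled. The calls come from the fit without pairing, and the replicate block is an alternative. The 3 libraries of a group differed by more than sampling noise (chi-square over degrees of freedom 32.9 to 90.3). Nothing says that they came from separate animals, so p-values reflect a spread that may be technical.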

Additional observations from a re-analysis of the deposited data

How the results depend on the processing

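Of 55 mitosis genes, 53 were lower and 1 higher. Across the 6 analyses that left out 1 library, 47 to 51 were lower and 1 was higher, and the median log2 fold change ran from -1.49 to -1.40. Over all genes tested these analyses called 3388 to 4458 lower and 4313 to 5017 higher. The median was -1.66 with upper-quartile and -1.62 with library-size scaling, which moved the median of all genes to -0.22 and -0.18 (0.10 with DESeq2). It was -1.20 on log2(FPKM + 1) and -1.40 on log2(FPKM + 0.1). The remaining alternatives left 49 to 53 lower. The replicate block gave 53 lower genes, 1 higher and a median of -1.47, and it changed no other call named in the text than those given beside their results. The calls of 45 genes held in all 18 alternatives, and those of Plk4, Incenp, Espl1, Smc4, Birc5, Anln, Cks2, Ncapd3 and Ncaph were lost in 12, 12, 9, 6, 2, 1, 1, 1 and 1. For Bub3, never called, the sign turned with RLE scaling (0.0070), DESeq2 (0.0036), without library 1 (0.11) or 3 (0.032) labelled knockout, without wild type library 2 (0.033; range over single libraries left out -0.21 to 0.11) and without both libraries numbered 1 (0.026). The cause of these shifts was not tested.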
